A study of Mus musculus with 7 samples.

Results

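The genes described here are 7 members of the Ms4a cluster of mouse chromosome 19: Ms4a4b, Ms4a4c, Ms4a6b, Ms4a6c, Ms4a6d, Ms4a7 and Ms4a15. They were taken by name from a table of 28987 genes, of which 22784 were above 0 in a library, and all 7 were found. The list was chosen by TPM values of these same libraries, because Ms4a6b was higher and Ms4a15 lower with the RUNX1 mutation in Ly6G+ cells. Levels in that contrast are therefore a description and carry no test. RNA came from bone marrow of individual C57BL/6 mice and was sequenced in 7 libraries. HSC/P, hematopoietic stem and progenitor cells enriched with a CD117 selection kit and then sorted for the mutant clone, gave 1 library with HMGA2 overexpression (HMGA2-OE) and 2 with RUNX1 mutation and HMGA2-OE together (RUNX1mut/HMGA2-OE). Sorted myeloid cells with Ly6G, a surface marker of neutrophils, gave 1 library of each genotype: Control, RUNX1mut without HMGA2-OE, HMGA2-OE alone, and both together. RUNX1mut/HMGA2-OE is called the combined genotype here. HMGA2-OE is shared by every HSC/P library, so there is no HSC/P control without it. The sources used here do not give the kind of RUNX1 mutation, the promoter driving HMGA2, or the sex and age of the mice.

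MS4A proteins are small membrane proteins that cross the membrane several times and associate with receptors and signaling complexes. The best known are Ms4a1 (CD20 of B cells), Ms4a2 (the beta chain of the IgE receptor of mast cells and basophils) and Ms4a3 (found in granulocyte and monocyte progenitors). Among the 7 genes, Ms4a4b is best known from T cells, Ms4a4c from lymphoid and myeloid cells after interferon, Ms4a6b from T cells and myeloid cells, Ms4a6c and Ms4a6d from monocytes and macrophages, Ms4a7 from tissue macrophages, and Ms4a15 from lung.

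In the mm10 assembly Ms4a15 (ENSMUSG00000067571, chr19:10978307-10993250, minus strand) lies near 1 end of the cluster, with Ms4a10 beyond it. Ms4a7 (ENSMUSG00000024672, chr19:11321039-11336146, minus strand) starts 342.7 kb further on. A block of plus-strand genes follows, with Ms4a4c (ENSMUSG00000024675, chr19:11404770-11427246), Ms4a4b (ENSMUSG00000056290, chr19:11443553-11467055), Ms4a6c (ENSMUSG00000079419, chr19:11469366-11482192) and Ms4a6b (ENSMUSG00000024677, chr19:11516512-11531256). Ms4a6d (ENSMUSG00000024679, chr19:11586604-11604849, minus strand) lies beyond them and next to Ms4a2 and Ms4a3. All 7 are annotated as protein-coding in GENCODE M21.

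RefSeq (GRCm38.p6) promoter windows matched 6 of the 7 genes, all but Ms4a6d. The first sequences printed are the 250 bases upstream of the start of Ms4a6b (chr19:11518309-11518558, plus strand, inside the GENCODE span of the gene) and of Ms4a6c (chr19:11469118-11469367, plus strand). They are shown because these neighbours have closely related upstream sequence but different levels in Ly6G+ cells. Capitals mark GGAAGT or its reverse complement ACTTCC, the core bound by ETS factors such as PU.1.
Ms4a6b: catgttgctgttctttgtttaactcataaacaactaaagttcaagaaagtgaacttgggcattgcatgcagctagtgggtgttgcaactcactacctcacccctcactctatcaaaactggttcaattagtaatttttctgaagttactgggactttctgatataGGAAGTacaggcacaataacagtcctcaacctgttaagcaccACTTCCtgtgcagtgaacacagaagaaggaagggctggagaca
Ms4a6c: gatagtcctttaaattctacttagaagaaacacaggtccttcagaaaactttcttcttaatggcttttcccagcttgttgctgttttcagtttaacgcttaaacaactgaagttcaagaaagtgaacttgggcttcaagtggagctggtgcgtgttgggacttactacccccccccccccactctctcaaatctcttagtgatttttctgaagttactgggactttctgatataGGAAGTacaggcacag
Over 182 aligned columns these windows were 83.5% identical, with an exact shared run of 48 bases, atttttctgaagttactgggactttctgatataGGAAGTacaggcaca, that holds the ETS core. The windows of Ms4a4c (chr19:11407411-11407660, plus strand, inside the GENCODE span of the gene) and Ms4a4b (chr19:11443308-11443557, plus strand) were likewise related, 89.1% identical over 128 columns. Ms4a15 (chr19:10993251-10993500, minus strand), which moved the other way, was not similar to them over more than 23 columns. In the next 3 windows capitals mark GGAAGT and also TGTGGT (reverse complement ACCACA), the core bound by RUNX factors.
Ms4a4c: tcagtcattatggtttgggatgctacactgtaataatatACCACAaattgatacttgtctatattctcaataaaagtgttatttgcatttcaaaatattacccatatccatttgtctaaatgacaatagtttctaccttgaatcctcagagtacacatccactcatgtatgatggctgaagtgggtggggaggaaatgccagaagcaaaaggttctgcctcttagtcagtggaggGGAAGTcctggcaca
Ms4a4b: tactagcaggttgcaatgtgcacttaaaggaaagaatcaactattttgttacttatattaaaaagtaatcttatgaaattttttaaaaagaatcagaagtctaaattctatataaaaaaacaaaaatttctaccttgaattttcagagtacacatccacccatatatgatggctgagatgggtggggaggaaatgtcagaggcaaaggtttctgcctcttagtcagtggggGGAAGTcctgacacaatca
Ms4a15: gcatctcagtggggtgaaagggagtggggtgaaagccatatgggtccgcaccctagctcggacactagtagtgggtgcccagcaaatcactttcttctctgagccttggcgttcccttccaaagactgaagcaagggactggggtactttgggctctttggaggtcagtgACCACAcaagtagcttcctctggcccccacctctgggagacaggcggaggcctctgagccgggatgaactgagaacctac
GGAAGT on either strand was found in a window of 5 of the 6 genes with windows (Ms4a4b, Ms4a4c, Ms4a6b, Ms4a6c and Ms4a7). It was in 19.7% of all 32851 windows of 250 bases, a share counted by window and not by gene. Ms4a7 has 2 windows, and its second held no match. The windows of Ms4a4b and Ms4a4c, and of Ms4a6b and Ms4a6c, are related, so their matches are not separate. TGTGGT was found in Ms4a4c and Ms4a15, and in 14.05% of all windows. The longer form GAGGAAGT, which contains GGAAGT, was in 0 of the 6 genes' windows and in 2.44% of all. These letter matches are descriptions and not binding sites.

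Values are TPM as deposited, a length-normalized share of transcripts, unless they are said to be scaled. The read depth behind them is unknown. Hmga2 lay between 138 and 176 TPM in HSC/P, and in Ly6G+ cells at 3.72 and 12.1 TPM with HMGA2-OE against 1.45 and 1.36 without. For Runx1 the HMGA2-OE HSC/P library had 18.9 TPM and the 2 with the mutation 219 and 225, while Ly6G+ cells had 11.6 and 21.2 with it and 3.85 and 3.36 without. Ly6g was between 270 and 441 TPM in Ly6G+ libraries and between 7.28 and 136 in HSC/P, while Kit was between 3.43 and 5.20 in Ly6G+ libraries and between 61.8 and 155 in HSC/P. Cd34, another progenitor marker, was between 35.8 and 239 TPM in HSC/P. In Ly6G+ libraries it was at 0.268 and 0.858 TPM without the mutation and at 7.10 and 7.61 with it. The summed neutrophil list reached 309581 TPM or more in every Ly6G+ library and 63327 or less in HSC/P. The combined Ly6G+ library stood apart, with S100a8 at 3.11% of its summed TPM against 40.2% to 55.0% in the other Ly6G+ libraries. Since a transcript of that size moves every other TPM, libraries were scaled to each other for all log2 differences.

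**Figure D1:**
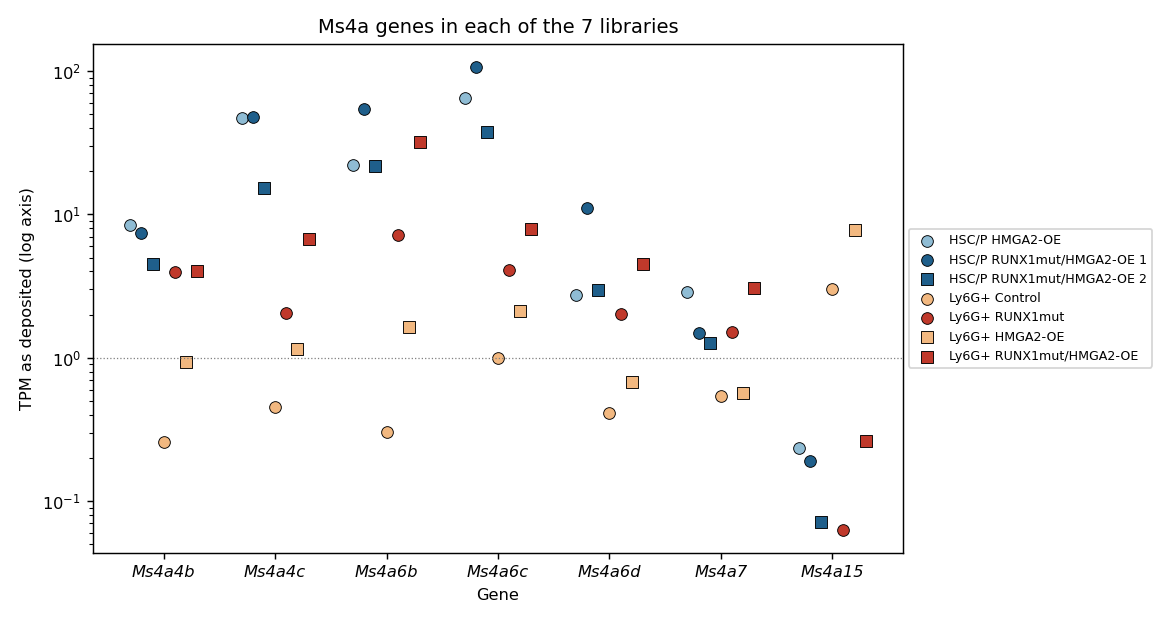
TPM as deposited (log axis) of the 7 genes, 1 point per library, with the dotted line at 1 TPM. Of the Ly6G+ libraries, those with the RUNX1 mutation (dark red) lie above those without (pale orange) for 6 genes and below them for Ms4a15, which is at or under 0.264 TPM in the 5 libraries with the mutation or from HSC/P.

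Ms4a6b, the gene with the widest difference in the Ly6G+ libraries among the 6 that were higher, was at 0.304 TPM in Control and 7.14 in RUNX1mut, and with HMGA2-OE at 1.63 without the mutation and 31.9 with it. Both mutant libraries were above both others. After scaling and with 1 TPM added, the difference was 2.58 on the log2 scale without HMGA2-OE and 2.66 with it, or 5.98-fold and 6.31-fold. In HSC/P the same gene was at 22.0 TPM with HMGA2-OE alone and at 54.7 and 21.8 in the combined pair, which spans the library without the mutation.

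Ms4a6c, its neighbour with the related upstream sequence, was at 0.988 TPM in Control and 2.14 with HMGA2-OE alone, and the Ly6G+ libraries with the mutation had 4.09 and 7.85. These differences were smaller, 1.26 and 0.55 on the log2 scale. The ratio of Ms4a6b to Ms4a6c TPM does not depend on scaling between libraries. Without the mutation it was 0.308 (Control) and 0.763 (HMGA2-OE) in Ly6G+ cells, and with it 1.74 (RUNX1mut) and 4.06 (combined). In HSC/P it was 0.337 without the mutation and 0.514 and 0.5835 in the combined pair. Ms4a6b thus exceeded Ms4a6c only in the Ly6G+ libraries with the mutation, among the 7 libraries. The sources used here do not say how reads were divided between these genes. Of the distinct 31-base words in annotated Ms4a6b transcripts 7.90% also occur in another gene, and 6.19% in Ms4a6c. For Ms4a6c the share was 58.1%, of which most (51.0% of its words) lie in the annotated gene BE692007. No single entry of that symbol was found among the deposited values. The level of Ms4a6c is therefore uncertain.

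Ms4a6d was low throughout the Ly6G+ libraries, at 0.409 and 0.680 TPM without the mutation and 2.02 and 4.51 with it. The differences, 1.04 and 0.96, nearly match between the pairs. Of its 31-base words 8.11% are shared. Ms4a7, the tissue macrophage gene, was at 0.539 and 0.564 TPM without the mutation and 1.52 and 3.08 with it, with differences of 0.64 and 0.70. Both genes sat near 1 TPM, where the added 1 TPM compresses the difference.

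Ms4a4c and Ms4a4b, the other related pair, were also higher with the mutation in both Ly6G+ pairs. Ms4a4c went from 0.451 TPM in Control to 2.07 in RUNX1mut, and with HMGA2-OE from 1.15 to 6.69 (1.01 and 0.98 on the log2 scale). Ms4a4b was at 0.257 and 3.94 TPM in the first pair and 0.932 and 4.02 in the second, with differences of 1.92 and 0.60. Among the 6 genes that were higher, its pairs were the furthest apart. Shared words made up 17.1% of Ms4a4c, 12.99% with Ms4a4b, and 5.46% of Ms4a4b.

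Ms4a15, far from the other 6 genes in the cluster and known for its role in calcium handling, ran the other way. Control Ly6G+ cells had 3.02 TPM and those with HMGA2-OE alone 7.84, while RUNX1mut had 0.0632 and the combined library 0.264. The differences were -2.04 and -3.40. HSC/P had 0.236, 0.192 and 0.0720 TPM, so the gene was above 1 TPM in the Control and HMGA2-OE Ly6G+ libraries alone. In those libraries it made up 50.6% and 52.5% of the summed TPM of the 7 genes. Ms4a15 has annotated transcripts of 388 and 391 nt beside one of 1713 nt, and Ms4a4c one of 361 nt. Of 2494 genes with a transcript of 350 to 420 nt, 2.21% were at least 2-fold lower with the mutation in both Ly6G+ pairs, against 0.874% of 7326 other genes. At least 2-fold higher in both were 1.84% and 1.37%. The part of transcript length in the Ms4a15 difference was not tested.

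**Figure D2:**
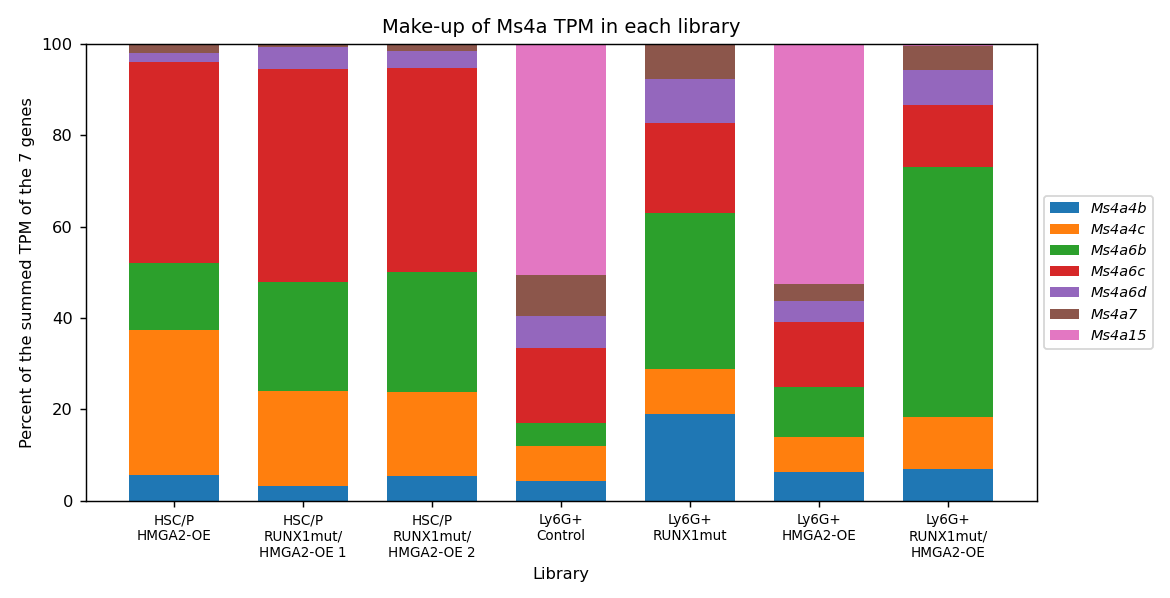
Percent of the summed TPM of the 7 genes taken by each gene, 1 bar per library. Ms4a6c leads in all 3 HSC/P libraries (43.9% to 46.5%), Ms4a15 in Control and HMGA2-OE Ly6G+ cells, and Ms4a6b in the Ly6G+ libraries with the RUNX1 mutation (34.2% and 54.7%).

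Counted over the 7 genes, 6 had both mutant Ly6G+ libraries above both others, a pattern found in 26.1% of the 9820 genes kept in these libraries, and 1 had both below, as had 24.5%. RUNX1mut over Control alone gave 5 of 7 genes at least 2-fold higher (5.36% of all genes) and Ms4a15 lower by that much (3.56%). With HMGA2-OE it was Ms4a6b that was 2-fold higher (4.93%) and again Ms4a15 that was lower (4.99%). In both pairs together Ms4a6b was at least 2-fold higher, as were 1.49% of genes, and Ms4a15 lower, as were 1.21%. Ms4a4c and Ms4a6d lay at the edge, at 2.02-fold and 1.97-fold and at 2.05-fold and 1.94-fold. All 7 genes passed the filter of 1 TPM in at least 2 libraries here, but each only with the help of a library in which it is high. Ms4a4b, Ms4a6d, Ms4a7 and Ms4a15 reached 1 TPM in no other Ly6G+ library. Ms4a4c, Ms4a6b and Ms4a6c reached it without the mutation in the HMGA2-OE library alone. The genes were chosen in this contrast, so nothing is read from these counts. Adding 0.1 TPM in place of 1 gave 4 genes at least 2-fold higher in both pairs, and leaving out scaling gave 5. Without scaling the median over all genes was 0.14 in the first pair and 1.02 in the second.

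Other members of the family were measured in the same cells. Of 15 further Ms4a and Tmem176 genes listed, 10 were in the table and 4 passed the filter in Ly6G+ cells. Ms4a3, the progenitor gene, was at 27.6 and 24.3 TPM without the mutation and 57.8 and 52.0 with it, but after scaling its differences were 0.87 and -0.09. Ms4a1, the B-cell gene, was between 1.13 and 4.49 TPM, with differences of 0.31 and 0.42. The related membrane protein genes Tmem176a and Tmem176b, on chromosome 6, were at least 2-fold higher in both pairs. Tmem176b went from 1.43 to 11.9 and from 1.9996 to 13.7 TPM (2.29 and 1.32). Tmem176a went from 1.34 to 7.67 and from 1.07 to 9.26 TPM (1.78 and 1.43). Ms4a2 was at 1.30 TPM in RUNX1mut and below 1 in the other Ly6G+ libraries.

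**Figure D3:**
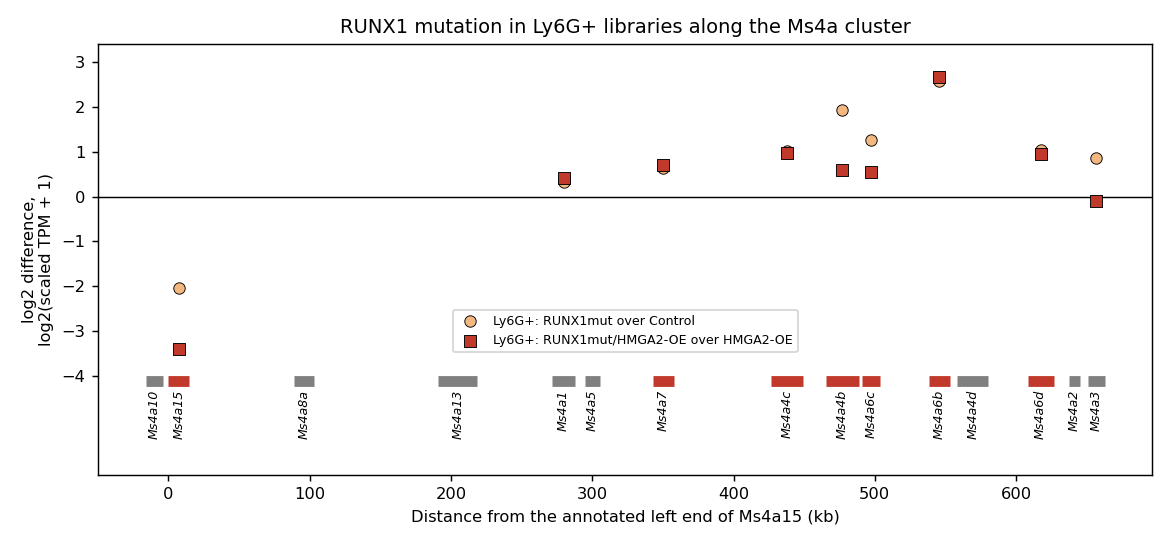
Differences on the log2(scaled TPM + 1) scale between Ly6G+ libraries with and without the RUNX1 mutation, by distance in kb along the cluster. Bars show the Ms4a genes of the table, with the 7 genes in red. Points stand for the 9 genes that passed the filter, and all lie above 0 except Ms4a15 in both pairs and Ms4a3 in 1 pair.

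Markers of other cells also differed between these libraries. Of 18 monocyte and macrophage genes 14 passed the filter, and 12 of them had a mean difference above 0 over both Ly6G+ pairs, with medians of 0.79 without and 0.49 with HMGA2-OE, against 0.01 for the mean difference over all genes. The summed TPM of this list was 1556 in Control and 1162 with HMGA2-OE alone, and 1065 and 1059 in the corresponding libraries with the mutation, and most of it was Ly6c2, a gene of inflammatory monocytes and immature myeloid cells. Without Ly6c2, which was lower with the mutation in both pairs, the sums as deposited were 144 and 129 TPM without the mutation and 278 and 395 TPM with it. Scaling would divide the 129 and 395 TPM by factors of 0.690 and 1.58, so that difference is smaller after scaling. F13a1, a coagulation factor gene of monocytes, went from 1.75 to 6.90 TPM and from 4.36 to 14.6. Ctss, a lysosomal protease gene, went from 10.5 to 42.5 TPM and from 15.6 to 60.6. Csf1r, the receptor that macrophages need, went from 33.7 to 55.4 TPM and from 27.9 to 74.5. These are values as deposited, and the log2 differences after scaling were smaller in the pair with HMGA2-OE. They were 1.40 and 0.49 for F13a1, 1.75 and 0.74 for Ctss, and 0.53 and 0.22 for Csf1r. Ly6c2 was lower, by -1.02 and -1.83. At least 2-fold higher in both pairs was 1 of the 14, against 1.49% of all genes, and 1 was lower by that much, against 1.21%. None of the 18 was at 0 in a Ly6G+ library.

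List sums are as deposited, and medians are of scaled log2 differences, given first without and then with HMGA2-OE. The T and NK cell list summed to 12.7 and 24.2 TPM without the mutation and 22.2 and 56.1 with it, with 8 of 18 genes passing the filter 0 at least 2-fold higher in both pairs, and medians of 0.67 and 0.195. Its members of highest level went different ways. Trac, a T-cell receptor chain gene, was at 0.787 and 3.93 TPM without the mutation and 1.73 and 18.7 with it, with differences of 0.53 and 0.94. Cd3d, of the T-cell receptor complex, was at 5.25 and 10.2 TPM without and 3.01 and 8.54 with it, with differences of -0.79 and -1.30. Cd3e, of the same complex, was between 0.101 and 0.438 TPM. The dendritic cell list summed to 12.5 and 13.8 TPM without the mutation and 25.6 and 42.8 with it (medians 0.71 and 0.50), and the B lymphoid list to 71.2 and 49.2 against 134.0 and 133.7 (medians 0.94 and 0.45). Mast cell, basophil and eosinophil genes summed to 350 and 329 TPM against 457 and 484, but their medians were 1.79 and -0.097, so the medians differ in direction after scaling. Stem and progenitor genes summed to 35.3 and 26.97 TPM against 68.9 and 94.7 (medians 1.02 and 0.72). At least 2-fold higher in both pairs were 2 of 10 mast cell, basophil and eosinophil genes tested and 3 of 11 stem and progenitor genes. The counts were 2 of 10 for B lymphoid, 1 of 5 for dendritic cell and 1 of 18 for interferon response genes, against 1.49% of all genes. None of these lists had a gene lower by that much in both pairs. The mean difference was below 0 for 12 of 13 neutrophil genes, with a median of -0.20. Among 18 of 20 interferon response genes that passed the filter the medians were 0.58 without and -0.17 with HMGA2-OE. In these bulk samples fewer or more cells of a type and less or more RNA per cell cannot be told apart, and the part of these cells in the Ms4a differences was not tested.

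In HSC/P, a contrast that did not choose the genes, no difference with the mutation passed the test. Of the 6 genes that passed the filter there (all but Ms4a15), 0 passed limma with Benjamini-Hochberg adjustment at 0.05, against 0% of 12226 genes. At an unadjusted p under 0.05 they numbered 0 of 6, against 15.6% of genes. The largest difference relative to its error was that of Ms4a7, at 2.85 TPM without the mutation and 1.48 and 1.27 with it (-0.82 ± 0.32 SE, 95% interval -1.75 to 0.12, adjusted p = 0.353). For this gene both replicates lay below HMGA2-OE by more (-0.74 and -0.89) than they differed from each other (0.15). Ms4a4b was at 8.39 TPM against 7.41 and 4.51 (-0.61 ± 0.37, interval -1.68 to 0.46, adjusted p = 0.487).

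Ms4a4c was at 46.9 TPM without the mutation and at 47.5 and 15.3 in the combined pair, with a difference of -0.93 ± 0.75 and an adjusted p of 0.584. Ms4a6c was at 65.1 TPM against 106 and 37.3 (-0.21 ± 0.71, adjusted p = 0.895). For Ms4a6b the difference was 0.47 ± 0.62, with an interval of -1.33 to 2.27 and an adjusted p of 0.741. Ms4a6d was at 2.74 TPM against 11.1 and 2.97 (0.76 ± 0.78, adjusted p = 0.667). The intervals of all 6 genes reach beyond 2-fold in at least 1 direction, so the comparison does not show that levels were alike. The spread comes from 1 pair and the fit across genes, on the assumption that the single HMGA2-OE library varies as much. The neutrophil list summed to 63327 TPM in that library and to 18076 and 18905 in the pair, and its part in these differences was not tested. After scaling, both combined replicates were below HMGA2-OE for Ms4a4b, Ms4a4c and Ms4a7 (Ms4a4c in replicate 1 by -0.12, though slightly above in TPM as deposited), as for 41% of all genes, and both above for 0 of 6, as for 37.8%.

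The combined HSC/P replicates differed from each other for most of these genes. After scaling, replicate 1 was above replicate 2 by 3.12-fold for Ms4a6d, 3.07-fold for Ms4a4c, 2.90-fold for Ms4a6c and 2.52-fold for Ms4a6b. That is 4 of 6 genes at least 2-fold higher in replicate 1, against 2.4% of all genes, and 0 of 6 lower by that much, against 2.31%. Ms4a4b (1.57-fold) and Ms4a7 (1.11-fold) were closer. The neighbours Ms4a3, at 449 and 186 TPM, and Ms4a2, at 9.68 and 4.49 TPM, were 2.49-fold and 1.99-fold higher in replicate 1. Tmem176a and Tmem176b were at 0.821 and 0.766 of the level in replicate 2.

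Monocyte and macrophage markers went the same way between these replicates. At least 2-fold higher in replicate 1 were 6 of 18, and the median was 0.61 on the log2 scale, against 1.44 for the 6 Ms4a genes. F13a1 was at 139 and 41.4 TPM, Ctss at 87.2 and 33.4 TPM, and Csf1r at 42.6 and 18.5 TPM. Ly6c2, at 182 and 176 TPM, hardly differed. Summed without Ly6c2, the list was at 548 and 280 TPM, and at 391 TPM in the library without the mutation. None of its genes was at 0 in HSC/P. Whether these replicates differed in monocytic cells was not tested.

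**Figure D4:**
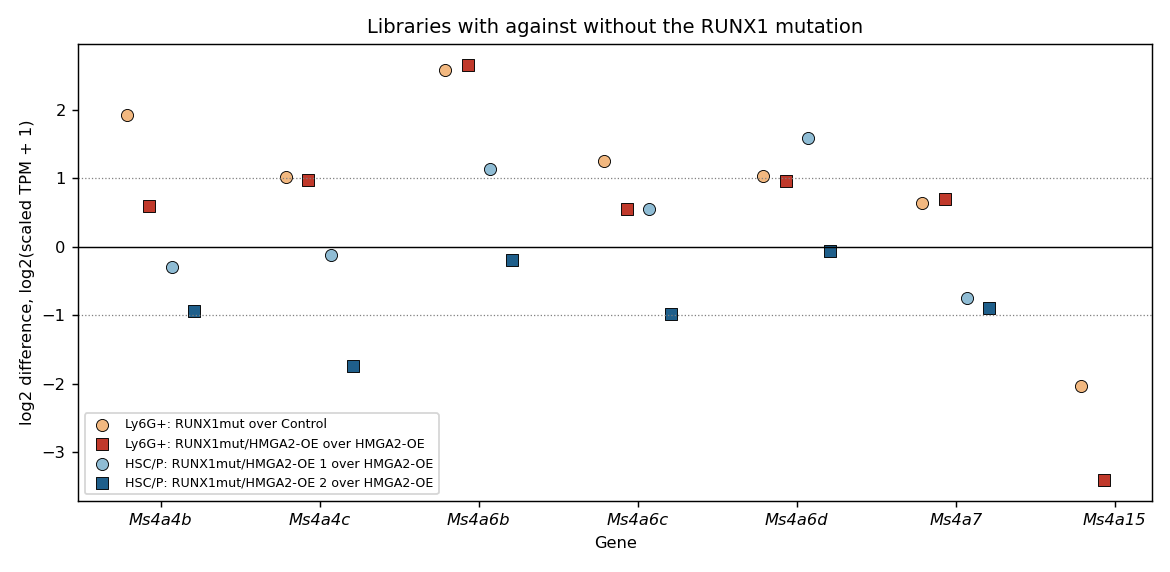
Differences on the log2(scaled TPM + 1) scale between libraries with and without the RUNX1 mutation, for both Ly6G+ pairs and for each combined HSC/P replicate over the 1 HMGA2-OE library. Dotted lines mark 2-fold, and Ms4a15 has no HSC/P points because it did not pass the filter there. The Ly6G+ points lie above 0 for 6 genes, while the HSC/P replicates lie on both sides of 0 for Ms4a6b, Ms4a6c and Ms4a6d.

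HMGA2-OE, tested over the 4 Ly6G+ libraries with the mutation as a covariate, gave values above 0 for all 7 genes, as for 52.2% of all genes, and 0 of 7 passed, against 0% of 9820. Ms4a6b was 1.37 ± 0.13 (SE) higher on the log2 scale, or 2.58-fold (95% interval 0.93 to 1.801), with 1.33 in the pair without the mutation and 1.41 with it, but its adjusted p was 0.389. It was the 1 gene of 7 at least 2-fold higher in both pairs, as were 0.58% of all genes, and 0 of 7 were lower by that much in both, as were 1.34%. Ms4a4c differed by 0.81 ± 0.14 (adjusted p = 0.631), with 0.83 and 0.79 in the pairs. These were the 2 genes with an unadjusted p under 0.05 (0.00279 and 0.0151), as had 6.51% of all genes. Ms4a15 was higher with HMGA2-OE where the mutation was absent (1.505) and nearly level where it was present (0.14), with 0.82 ± 0.44 in the fit. Ms4a4b was 0.87 higher in the first pair and 0.46 lower in the second (-0.46), and the fitted value was 0.21 ± 0.43. In all, 6 of the 7 genes were higher with HMGA2-OE in both pairs, as were 29.9% of all genes. With 1 library per genotype, the errors here come from how far the 2 pairs disagree and from the fit across genes. They do not measure spread between replicates. The pairs of the RUNX1 contrast, which chose the genes, disagree by the same amount. The errors and p-values of this term are therefore not independent of that choice.

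Between cell types 1 of the 6 genes tested passed, against 64.7% of 12686 genes (1 of 6 at an unadjusted p under 0.05, against 69.1%). This fit holds both Ly6G+ libraries with HMGA2-OE, a pair of the contrast that chose the genes. Its errors come in part from how far the RUNX1 difference disagrees between the cell types. The errors, p-values and number of calls are therefore not independent of that choice, and nothing is read from the count. In the 5 libraries with HMGA2-OE, Ms4a6c was at 65.1, 106 and 37.3 TPM in HSC/P against 2.14 and 7.85 in Ly6G+ cells, and every HSC/P library was above both Ly6G+ libraries, as for 41.3% of genes after scaling. It was called, at 1.84 ± 0.52 on the log2 scale (3.59-fold, adjusted p = 0.0355), in the direction in which 32.2% of all genes passed. The call was lost without replicate 1 of the combined HSC/P (1.49, adjusted p = 0.0642) and without the combined Ly6G+ library (2.24, adjusted p = 0.0894). It was also lost without the filter on low values (2.14, adjusted p = 0.0530) and in a fit of cell type by mutation (1.90, adjusted p = 0.0654). Ms4a4c was at 1.43 ± 0.70 (adjusted p = 0.140), and passed without replicate 2 of the combined HSC/P (adjusted p = 0.0253).

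For the other 4 genes the direction depended on the scaling, which in this comparison moved the median of all genes from 1.46 as deposited to 0.10. Ms4a6b differed by -0.23 ± 0.71 with scaling and by 1.41 without, Ms4a4b by -0.18 ± 0.39 and 1.23, Ms4a6d by -0.61 ± 0.50 and 0.69, and Ms4a7 by -0.99 ± 0.41 and 0.11. None of these 4 was called lower, against 32.5% of all genes, but Ms4a7 was in the fit of cell type by mutation (-0.88, adjusted p = 0.0180). Of the other family members tested, Ms4a1 was lower in HSC/P (-2.21 ± 0.30, adjusted p = 0.00416). Tmem176a (2.12 ± 0.17, adjusted p = 0.00126) and Tmem176b (2.28 ± 0.22, adjusted p = 0.00192) were higher. Ms4a2 (1.06 ± 0.35) and Ms4a3 (1.20 ± 0.43) did not pass.

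The genes whose levels followed each of these most closely were found by Pearson r of log2(TPM + 1) over the 7 libraries, among 9722 protein-coding genes that reached 5 TPM and were never at 0. For Ms4a6b they were Ctsc (r = 0.995), which encodes a lysosomal protease that activates granule serine proteases, Ube2w (0.984) and Dusp22 (0.981). Ctsc in Ly6G+ cells was at 7.67 and 12.4 TPM where RUNX1 was not mutated, at 21.7 and 49.1 where it was, and at 46.1, 77.6 and 49.9 in HSC/P. For Ms4a6c and Ms4a4c the closest gene was F13a1 (0.996 and 0.994). Next were Tifab and Pcgf1 (both 0.996) for Ms4a6c, and Rnf144b and Nipa2 (both 0.992) for Ms4a4c. For Ms4a6d the closest were Nupr1 (0.982), Dusp22 (0.969) and Cd302 (0.967). For Ms4a4b they were Lsm7 (0.984), Prg2 of the mast cell, basophil and eosinophil list (0.981), and Hfe (0.972). For Ms4a7 they were Lhfpl2 (0.971), Traf7 (0.969) and Ccr3 of the same list (0.965). For Ms4a15 they were Lmbr1l (0.941), Pitpna (0.923) and Haao (0.904). In TPM as deposited, Ms4a6c and Ms4a4c follow the split between cell types. That split moves the median of all genes by 1.46 on the log2 scale without scaling, in the 5 libraries with HMGA2-OE. With Ms4a6c and Ms4a4c 5729 and 4982 genes had r above 0.9, against 381 with Ms4a6b and 3 with Ms4a15. These values are descriptions over 7 libraries that share the cell type split and the S100a8 load.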

How the data were processed

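RNA was profiled in 7 libraries of mouse bone marrow cells in 6 groups, taken from the sample labels. The submitters' processing notes name bcl2fastq, CASAVA 1.8, kallisto and mm10, and the sources used here give no annotation or index. The unit of the deposited values was taken to be TPM from the numbers themselves, which are not whole and sum to between 896820 and 993009 per library. Depth and counting error are therefore unknown. Symbols came from GENCODE M21 for 27458 identifiers.

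A gene entered a fit if 2 or more of its libraries reached 1 TPM. Scaling used a trimmed mean of log ratios (trims 0.3 and 0.05). Then log2(scaled TPM + 1) was fitted with limma 3.58.1 in R 4.3.3, with a trend of the variance on expression. This scale understates the fold changes of low genes. Tests were two-sided with Benjamini-Hochberg adjustment over all genes at 0.05, and p-values measure the spread between these few libraries. For the HMGA2-OE term that spread is the disagreement between the 2 pairs and not between replicates. Between cell types it includes the disagreement of the RUNX1 difference between HSC/P and Ly6G+ cells. The RUNX1 contrast in Ly6G+ cells was described by pair, since it chose the genes. Named genes were the 7 genes in every library, Hmga2, Runx1, Ly6g, Kit and Cd34, and family members at 1 TPM or more. Up to 4 genes of highest mean TPM of a marker list were also named, and the 3 genes closest to each Ms4a gene (clone names left out). Cd3e and S100a8 were chosen after their values were seen. The genes and lists were chosen with earlier results of these data known. On simulated data the HSC/P fit of 12226 genes recovered 53.6% of genes changed 4-fold and 91.2% of those changed 16-fold. The HMGA2-OE term over 9820 genes recovered 13.8% and 77.8%, and HSC/P against Ly6G+ over 12686 genes 72.6% and 94.3%. False calls in these simulations were 35 of 463, 17 of 293 and 22 of 519, in the same order. In the real HSC/P libraries Runx1, at 10.0-fold, and Cpa3, at 21.6-fold, did not pass. The simulated shares are therefore not the power of the fits to these libraries. Words of 31 bases were counted on either strand of GENCODE M21 transcripts. Upstream windows were aligned locally with Biopython 1.88, and figures were drawn with matplotlib 3.10.9.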

Additional observations from a re-analysis of the deposited data

Results flagged for a closer look

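Of the 6 genes that passed the filter in HSC/P, 3 had both RUNX1mut/HMGA2-OE replicates below HMGA2-OE after scaling. For these 3 both Ly6G+ libraries with the RUNX1 mutation lay above their partners, so the direction was opposite in the cell types. The difference between the cell types was not tested, since the Ly6G+ contrast chose the genes, and the HSC/P replicates share 1 reference library. Ms4a4b differed by -0.29 and -0.94 on the log2 scale in HSC/P and by 1.92 and 0.60 in Ly6G+ cells. Ms4a4c differed by -0.12 and -1.74 in HSC/P and by 1.01 and 0.98 in Ly6G+ cells, and the first of these 4 values turns in TPM as deposited (47.5 against 46.9). Ms4a7 differed by -0.74 and -0.89 in HSC/P and by 0.64 and 0.70 in Ly6G+ cells. Both HSC/P replicates lay below HMGA2-OE for 41% of all genes, a share near the 3 of 6 here, so nothing is read from this count. The share of all genes with opposite directions in the cell types was not counted.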

How the results depend on the processing

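Depth is unknown for every library, and values below 1 TPM, as for Ms4a15 in 5 libraries, cannot be given a counting error. No paired analysis was possible because the labels do not say which libraries share an animal. The settings that compare single pairs or leave out the RUNX1mut/HMGA2-OE Ly6G+ library were chosen after seeing the data.

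In the HSC/P comparison 1 gene was called without scaling and 0 under the other settings, none of them an Ms4a gene. For the HMGA2-OE term 61 genes were called without scaling and 0 otherwise, again no Ms4a gene. Between cell types the number of Ms4a genes called was 1, against 0 without the filter on low values, 4 without scaling, 2 with TPM rescaled without S100a8 and S100a9, 0 without the RUNX1mut/HMGA2-OE Ly6G+ library, and 0 to 2 with 1 HSC/P replicate of RUNX1mut/HMGA2-OE left out.

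Genes at least 2-fold higher with the RUNX1 mutation in both Ly6G+ pairs numbered 146, against 476 without scaling, 351 and 239 with 0.1 and 0.5 TPM added, 277 with TPM rescaled without S100a8 and S100a9, 526 for RUNX1mut over Control alone and 484 for RUNX1mut/HMGA2-OE over HMGA2-OE alone. Genes lower numbered 119, against 72 with a filter of 5 TPM, 49 without scaling, and 350 and 490 for the single pairs. Of the Ms4a genes 1 was 2-fold higher in both pairs, against 5 without scaling, 4 and 3 with 0.1 and 0.5 TPM added, 3 with TPM rescaled, and 5 for RUNX1mut over Control alone.

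Some directions turned, all of values that had not passed. With 1 HSC/P replicate left out, the HSC/P difference ranged from -0.20 to 1.14 for Ms4a6b, -0.98 to 0.56 for Ms4a6c and -0.056 to 1.58 for Ms4a6d. The HMGA2-OE difference of Ms4a4b, at 0.21, was -0.46 in the pair with the mutation. Between cell types Ms4a4b, at -0.18, was at 0.074 without the filter, 1.23 without scaling, 0.88 rescaled, 0.28 with upper-quartile scaling, -0.24 to 0.040 with 1 HSC/P replicate left out and 0.50 without the RUNX1mut/HMGA2-OE Ly6G+ library. Ms4a6b, at -0.23, was at 0.058, 1.41, 0.98, 0.29, -0.41 to 0.24 and 1.08 in the same order. Ms4a6d, at -0.61, was at 0.69 without scaling and 0.37 rescaled, and Ms4a7, at -0.99, at 0.11 without scaling. The adjusted p of Ms4a4c was 1.01e-04 without scaling and 0.0287 rescaled. Apart from the scaling itself, the cause was not tested.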
